A study of Mus musculus with 30 samples.

Results

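The complement system was followed through 31 transcripts in 3 tissues of mice with and without liver fatty acid-binding protein. The genes were taken by name from the deposited table, which lists 41549 genes, and all 31 were found. They comprise the recognition molecules and proteases of the classical and lectin pathways, the proteins that form the convertases, the components of the terminal pathway, soluble and membrane-bound regulators, and receptors for complement fragments. Male LFABP-/- mice, which lack the gene Fabp1, were compared with male wild-type (WT) mice, and both were on a C57Bl/6J background. From 2 months of age all mice ate a diet with 45% of energy as fat, rich in saturated fat, for 12 weeks, and were fasted for 4 h before tissue collection, so no group on a low-fat diet is part of the comparison. Inguinal white fat (iWAT), interscapular brown fat (iBAT) and liver of 5 LFABP-/- and 5 WT mice gave 30 libraries, and the same 10 mice gave all 3 tissues.

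Complement is a cascade of plasma proteins that tags foreign and damaged material, recruits phagocytes and opens pores in membranes. C1q, mannose-binding lectins or a slow spontaneous reaction start it. All routes meet at C3, whose cleavage by the convertases feeds amplification through factor B, opsonization, and assembly of the membrane attack complex from C5 to C9. Hepatocytes are the main source of most plasma components, macrophages make C1q, and stromal cells and adipocytes make several components locally.

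Levels are given in TPM, a share of the library corrected for transcript length, so they can be compared between genes, and the values of each library summed to between 999967.3 and 999996.4. The read depth behind them is not given, so no counting interval can be attached. Each library had 16470 to 20502 genes above 0. Transcripts encoded by the mitochondrial genome took 53.3% to 60.1% of the iBAT total, 13.2% to 20.6% of the iWAT total and 12.1% to 18.1% of the liver total. In liver this share was 16.9% to 18.1% in LFABP-/- libraries and 12.1% to 15.1% in WT libraries, with no overlap. Fabp1 was at 0.2 to 51.8 in LFABP-/- livers and at 9165.5 to 12697.6 in WT livers. In iWAT it was at 196.1 in LFABP-/- replicate 1, at 0.2 to 0.9 in the other LFABP-/- libraries and at 1.9 to 23.9 in WT libraries. In iBAT it was at 0.4 to 21.2 in LFABP-/- and at 0.2 to 8.7 in WT libraries, so in iBAT its level did not separate the genotypes. White adipocyte markers in iWAT, brown adipocyte markers in iBAT and hepatocyte markers in liver were all above 0 in every library. Transcripts of other cell types differed between libraries of a tissue in several respects that touch the results below: liver transcripts in iBAT and in 1 iWAT library, lymphocyte transcripts in 5 iWAT libraries, macrophage transcripts in iWAT, skeletal muscle transcripts in both fat depots, and macrophage and Kupffer cell transcripts in the liver of WT replicate 5. In whole tissue, fewer cells of a type and less RNA per cell cannot be told apart.

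In WT mice 18 of the 31 complement genes were highest in liver, 11 in iWAT and 0 in iBAT. A gene was counted for a tissue when its level there exceeded that in both other tissues at adjusted p under 0.1 in limma over all 30 libraries. Among the 15564 genes tested, 12.6% were highest in liver, 70.4% in iWAT and 5.86% in iBAT. C1s1 and C4b were not counted for any tissue, since their liver and iWAT levels did not differ past the threshold. With median-ratio scaling both were counted for liver. In LFABP-/- mice the numbers were 19, 10 and 0, against 12%, 73.2% and 5.56% of all genes: C1s1 was then highest in liver, and C2 was no longer highest in iWAT.

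**Figure D1:**
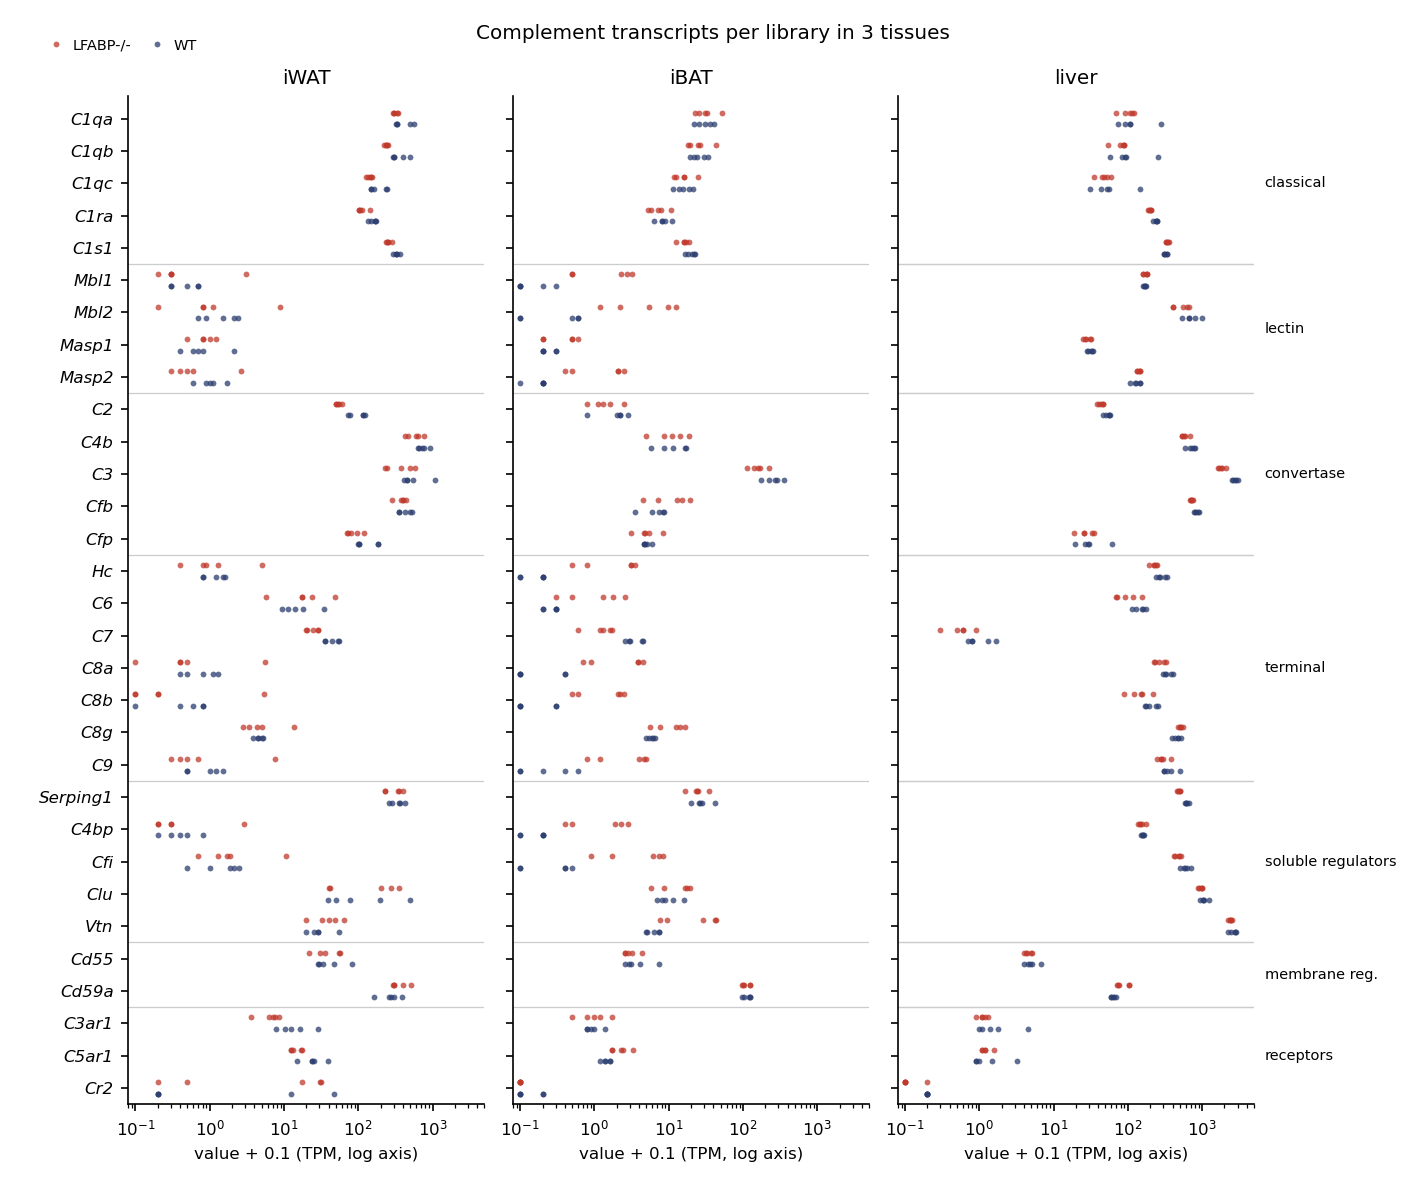
Value in TPM plus 0.1 (log axis) of the 31 complement genes in iWAT, iBAT and liver, 1 point per library, LFABP-/- in red above WT in blue, genes grouped by role. The lectin pathway genes and most of the terminal pathway sit above 20 in liver and mostly under 10 in the fat depots, whereas the C1q chains, C2, Cfp, C7 and the receptors average higher in iWAT than in liver.

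The summed value of the 31 genes averaged 10929 ± 320 in LFABP-/- livers and 13256 ± 756 in WT livers (SD, n = 5 each). In iWAT it averaged 3580 ± 466 in LFABP-/- and 4429 ± 722 in WT, and in iBAT 509 ± 119 in LFABP-/- and 563 ± 82.2 in WT. The liver sums ran between 10471 and 11286 in LFABP-/- mice and between 12224 and 14282 in WT mice.

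The classical pathway was divided between liver and white fat. C1qa, C1qb and C1qc, which form the recognition molecule C1q, were higher in iWAT than in liver and higher in liver than in iBAT. C1qa, the highest of the group in iWAT, was at 328.1, 301, 346.2, 299 and 294.6 in LFABP-/- iWAT and at 329.4, 321.9, 563.4, 489.7 and 336 in WT iWAT. In iBAT it was at 32.9, 51.8, 22.5, 31 and 25.7 in LFABP-/- and at 35.5, 21.6, 25.2, 30.9 and 41.1 in WT. In WT mice the log2 difference of C1qa, liver minus iWAT, was -1.75 ± 0.26 (SE, adjusted p = 7.1e-07). The WT liver of replicate 5 stood apart for this gene at 281.2, against 74.5 to 107.5 in the other WT livers and 68.8 to 119.5 in LFABP-/- livers. That library also had the highest summed Kupffer cell markers, 494.5 against 106.3 to 203.3 in the other WT livers. The proteases C1ra and C1s1, which C1q activates, had another distribution. C1ra was higher in liver than in iWAT by a log2 difference of 0.59 ± 0.14 in WT mice (adjusted p = 0.00032), and C1s1 differed by -0.02 ± 0.09 (adjusted p = 0.84). On GRCm38 the pair lie close together on chromosome 6, C1ra at 124512405 to 124523443 and C1s1 at 124530345 to 124542359. Each has a close copy, C1rb and C1s2, and 18.4% of the C1s1 exonic bases are shared with the antisense gene Gm16567, so their reads may be split or shared.

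All 4 lectin pathway genes were highest in liver. Mbl2, a mannose-binding lectin, was the highest of them in every tissue. It was at 410.5, 412, 546.7, 635.8 and 673.2 in LFABP-/- livers and at 665.7, 660.1, 537.9, 802.3 and 1000.2 in WT livers. In WT fat it stayed at 2.3 or less in iWAT and at 0.5 or less in iBAT. Mbl1, its paralog, averaged 170.7 and 167.6 in LFABP-/- and WT livers and 0.4 in WT iWAT. The proteases Masp1 and Masp2 averaged 28.3 and 139 in LFABP-/- livers and 31.1 and 132 in WT livers, and both averaged under 1 in WT fat. Of the Masp2 exonic bases, 54.9% are shared with Tardbp on the other strand. Since the counting is not stated to use strand, Masp2 values may hold Tardbp reads.

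Transcripts of the convertase components were abundant in both liver and iWAT. C3, the component at which all pathways meet, averaged 2766 ± 206 in WT livers, 588 ± 284 in WT iWAT and 263 ± 69.3 in WT iBAT, and it was the only convertase gene above 20 in every iBAT library. C4b, a component of the classical and lectin convertase, was the highest of the group in iWAT. It was at 460.9, 427.8, 592.9, 776.4 and 645.2 in LFABP-/- iWAT and at 725.5, 754.8, 924.2, 627.4 and 662.8 in WT iWAT, with overlapping groups. WT livers averaged 716 ± 86.9 for C4b, and its liver minus iWAT difference in WT mice was -0.04 ± 0.26 on the log2 scale (adjusted p = 0.88). Cfb, the factor B of the alternative convertase, averaged 839 ± 57.5 in WT livers and 434 ± 83.2 in WT iWAT, but 6.66 ± 2.1 in WT iBAT. C2, the protease of the classical convertase, was higher in WT iWAT (100 ± 24) than in WT livers (53 ± 4.59), a log2 difference, liver minus iWAT, of -0.88 ± 0.21 (adjusted p = 0.00034). Cfp, properdin, which stabilizes the alternative convertase and is made by leukocytes, averaged 135 ± 44.3 in WT iWAT and 32.8 ± 15.9 in WT livers. C4b, Cfb and C2 lie in 1 stretch of chromosome 17, from 34728380 to 34898265. C2 and Cfb share 42.8% and 79.5% of their exonic bases with the readthrough gene Gm20547, and C4b has a close copy, C4a, so reads may be split among them.

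In the terminal pathway 6 of 7 genes were highest in liver, and C7 was the exception. C8g, the small chain of C8, had the highest level of the group in liver and iBAT. Its liver values were 507, 468.6, 502.3, 518.7 and 545 in LFABP-/- mice and 475.5, 429.1, 469.3, 518 and 393.6 in WT mice. C8a, C8b and C9, which complete the pore, averaged 344, 207 and 364 in WT livers and 0.72, 0.44 and 0.84 in WT iWAT. Hc, the mouse C5, averaged 285 ± 39.3 in WT livers and 1.08 ± 0.377 in WT iWAT. C6 was present in both, at 147 ± 24 in WT livers and 17.3 ± 10 in WT iWAT. C7, which anchors the growing complex in the membrane, averaged 44.7 ± 9.3 in WT iWAT, 3.38 ± 0.898 in WT iBAT and 0.96 ± 0.428 in WT livers. Its liver minus iWAT difference in WT mice was -4.97 ± 0.21 on the log2 scale (adjusted p = 5.6e-18). C7 was thus the 1 pore component that WT livers barely contained.

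Among the soluble regulators, Vtn, vitronectin, which blocks insertion of the pore, was the highest in liver at 2373.3, 2258.2, 2401, 2486.1 and 2523.9 in LFABP-/- mice and 2206, 2779.3, 2446.6, 2759.6 and 2833.1 in WT mice. Clu, clusterin, another inhibitor of the pore, averaged 950 ± 48.4 in LFABP-/- livers and 1057 ± 111 in WT livers. Serping1, the C1 inhibitor, was the highest of the group over the 10 libraries of each fat depot, although in LFABP-/- iBAT alone Vtn averaged 25.9 and Serping1 24.7. In iWAT it was at 227.5, 226.8, 395.4, 339.2 and 349.7 in LFABP-/- mice and at 429.4, 257.1, 354.7, 369.5 and 285.7 in WT mice. In iBAT it was at 24.2, 34.8, 24.6, 16.5 and 23.4 in LFABP-/- mice and at 25.9, 19.6, 27.5, 25.8 and 41.3 in WT mice. The genotypes overlapped in both fat depots. C4bp and Cfi, which together inactivate C4b, averaged 152 and 467 in LFABP-/- livers and 158 and 600 in WT livers, and 0.34 and 1.5 in WT iWAT.

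The membrane regulators and receptors were highest in iWAT. For Cr2 the WT libraries of iWAT and liver overlapped (liver minus iWAT, adjusted p = 0.0514 in limma). At a threshold of 0.05 Cr2 was not counted for any tissue. Cd59a, which stops C9 from joining the pore, was at 505.1, 298.8, 289.6, 301.8 and 395.7 in LFABP-/- iWAT and at 385.6, 301.2, 260, 163.3 and 278.3 in WT iWAT. It was also the highest of its group in iBAT, at 123.9, 97.9, 104.4, 125.5 and 99.8 in LFABP-/- and 123.1, 118.8, 122.3, 103.9 and 96.5 in WT mice. Cd55, decay-accelerating factor, which takes convertases apart, averaged 39.7 ± 15.4 in LFABP-/- iWAT and 43.8 ± 22.1 in WT iWAT, and its mean was under 5 in iBAT and in liver of both genotypes. C5ar1, the C5a receptor of myeloid cells, was the highest receptor over the 10 iWAT libraries, although in LFABP-/- iWAT alone Cr2 averaged 16 and C5ar1 14.3. C5ar1 was at 17.1, 12.3, 12.3, 13.1 and 16.7 in LFABP-/- and 14.8, 23.9, 39.1, 25.4 and 23.8 in WT mice. C3ar1, the C3a receptor, had the highest mean of the receptors over the 10 livers, although in LFABP-/- livers C5ar1 averaged 1.14 and C3ar1 1.02. It was at 1, 1.1, 1.2, 0.8 and 1 in LFABP-/- and at 1, 1.7, 1.3, 0.9 and 4.5 in WT mice. With median-ratio scaling C2, C1qc and Cd59a were no longer counted as highest in iWAT, and without the mitochondrially encoded genes Cd59a was not.

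Promoters are shown for 4 genes whose transcripts differed between genotypes, 3 of them in liver (C3, C1ra and Hc) and 1 in both fat depots (C1s1, a neighbor of C1ra on chromosome 6). RefSeq promoters (GRCm38.p6), 250 bases before to 50 after the start, were available here for 23 of the 31 genes. Capitals mark matches, on either strand, to letters typical of 4 factors known from liver and acute-phase genes: GTTAAT, any base and ATTA (HNF1), TTGCNNAA (C/EBP), TTCNNNGAA (STAT), and GGGA, any 3 bases and CCC (NF-kB). No 2 matches overlapped in these 4 promoters. A match is a description of the letters and not a site.
C3, chr17:57228087-57228386, minus strand: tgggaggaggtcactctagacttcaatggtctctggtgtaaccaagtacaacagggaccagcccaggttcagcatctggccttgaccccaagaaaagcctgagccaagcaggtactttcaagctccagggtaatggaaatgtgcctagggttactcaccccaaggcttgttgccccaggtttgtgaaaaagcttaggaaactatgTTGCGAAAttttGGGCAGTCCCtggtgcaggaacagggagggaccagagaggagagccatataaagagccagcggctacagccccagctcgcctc
C1ra, chr6:124512371-124512670, plus strand: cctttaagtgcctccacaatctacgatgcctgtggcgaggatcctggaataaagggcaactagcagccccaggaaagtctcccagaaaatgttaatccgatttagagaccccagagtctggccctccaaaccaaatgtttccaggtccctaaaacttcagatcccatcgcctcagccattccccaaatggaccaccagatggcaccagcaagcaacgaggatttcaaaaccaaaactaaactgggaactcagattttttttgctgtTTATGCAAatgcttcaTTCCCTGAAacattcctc
Hc, chr2:35061363-35061662, minus strand: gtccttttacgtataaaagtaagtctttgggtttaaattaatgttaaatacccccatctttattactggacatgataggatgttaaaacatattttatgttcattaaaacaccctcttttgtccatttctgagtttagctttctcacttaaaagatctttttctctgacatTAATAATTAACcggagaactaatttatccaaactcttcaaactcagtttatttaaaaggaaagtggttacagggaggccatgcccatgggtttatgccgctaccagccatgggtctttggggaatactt
C1s1, chr6:124542310-124542609, minus strand: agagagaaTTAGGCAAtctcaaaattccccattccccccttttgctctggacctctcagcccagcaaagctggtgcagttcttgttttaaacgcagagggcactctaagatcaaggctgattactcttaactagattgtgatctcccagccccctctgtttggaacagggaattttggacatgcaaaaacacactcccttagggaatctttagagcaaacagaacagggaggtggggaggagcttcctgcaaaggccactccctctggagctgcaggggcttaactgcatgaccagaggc

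The C/EBP letters lie 45 bases before the start in C3 and 242 bases before it in C1s1, and the HNF1 letters 79 bases before it in Hc. Over all 32851 promoters of this length, 10.8% held the C/EBP letters, 8.3% the STAT letters, 5.55% the NF-kB letters and 0.14% the HNF1 letters. Of the 23 complement promoters, 4 (C1ra, C1s1, C3 and C9) held the C/EBP letters, 5 (C1ra, C7, C8a, Masp2 and Vtn) the STAT letters, 4 (C1qc, C3, Cd55 and Cr2) the NF-kB letters and 1 (Hc) the HNF1 letters.

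In liver, 7 complement transcripts were lower and 1 was higher in LFABP-/- than in WT mice, of 29 tested. The background was 13.9% of genes lower and 3.08% higher among the 11629 tested, 16.9% in either direction. The lower genes were C3, Cfb and C2 of the convertases, the protease C1ra, the terminal component Hc, and the regulators Serping1 and Cfi. The higher gene was the membrane regulator Cd59a. C7 and Cr2 were under the filter, which asked for 1 TPM or more on average across the 10 libraries of a tissue. In C1ra, C3, Cfb and Serping1 all LFABP-/- values lay under all WT values, an arrangement found in 8.63% of genes, and in Cd59a they all lay over them, found in 1.4%. The summed hepatocyte markers moved with these genes, at 112283 to 133520 in LFABP-/- livers and 134661 to 162502 in WT livers with none of the 12 at 0. Their mean log2 levels overlapped, at 12.26 to 12.48 in LFABP-/- and 12.46 to 12.65 in WT livers, and their part in the differences was not tested. The median difference was -0.25 on the log2 scale for the 29 genes and -0.10 for all genes, and 24 of the 29 were negative, against 67.2% of all genes. Because median-ratio scaling moved the median of all genes to 0.00, differences in liver are also given relative to that median.

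C3 (chromosome 17, 57203970 to 57228136) had the largest fall of the genes called in liver. It was at 1843, 1710.4, 2072.8, 1795.4 and 1637.6 in LFABP-/- livers and at 2553.2, 2798.6, 2587, 3061.9 and 2826.9 in WT livers. Every LFABP-/- library lay under every WT library, and the LFABP-/- mean was 65.5% of the WT mean. The log2 difference was -0.61 ± 0.09 (SE, n = 5 each, adjusted p = 0.00896; exact two-sided permutation p = 0.0079, the smallest that 5 against 5 libraries allow), or -0.51 relative to the median of all genes. The call held in all 10 fits that left out 1 library, with log2 differences between -0.66 and -0.57. In 1 limma fit of all 30 libraries C3 was not called in liver (adjusted p = 0.16).

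Serping1, which restrains C1r, C1s and the lectin pathway proteases, was at 466.5, 469, 506.9, 502.3 and 490.8 in LFABP-/- livers and at 626.8, 607.2, 602.8, 582.4 and 662.3 in WT livers, with no overlap. The difference was -0.34 ± 0.07 on the log2 scale (adjusted p = 0.0168), -0.23 relative to the median. C1ra was at 204, 202.6, 196, 188.7 and 190.5 in LFABP-/- livers and at 236.5, 221.2, 243.8, 250.4 and 237.1 in WT livers, again without overlap. Its difference was -0.28 ± 0.06 (adjusted p = 0.0286), -0.17 relative to the median. Serping1 and C1ra each kept their call in all 10 fits that left out 1 library. In 1 limma fit of all 30 libraries neither was called in liver (adjusted p = 0.326 and 0.29). With median-ratio scaling Serping1 stayed past the threshold (-0.22, adjusted p = 0.0564), while C1ra did not (-0.16, adjusted p = 0.289).

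Cfi, factor I, which cuts C3b and C4b, was at 436, 419.5, 483.1, 514.4 and 483.9 in LFABP-/- livers and at 509.7, 628.3, 574.5, 580.7 and 707.7 in WT livers. The highest LFABP-/- library reached just above the lowest WT library. The difference was -0.36 ± 0.10 on the log2 scale (adjusted p = 0.0491), and the call was lost without LFABP-/- replicate 1 or WT replicate 2 (adjusted p up to 0.127). Hc was at 239, 224.9, 245.8, 225.3 and 195.1 in LFABP-/- livers and at 267.3, 316.4, 334.9, 241.1 and 263.8 in WT livers. This difference of -0.33 ± 0.11 (adjusted p = 0.0761) missed the threshold in 6 of 10 fits that left out 1 library, those without LFABP-/- replicate 1, 2, 4 or 5 or WT replicate 2 or 3.

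C2 was at 46.8, 46.3, 44.1, 40.7 and 38.6 in LFABP-/- livers and at 50.9, 55.2, 55.8, 45.9 and 57.1 in WT livers, where WT replicate 4 lay within the LFABP-/- range. Its difference was -0.29 ± 0.09 (adjusted p = 0.0597) and was lost without LFABP-/- replicate 4 or 5 or WT replicate 2 or 3. Cfb was at 702.9, 714.8, 765.1, 738.8 and 689.8 in LFABP-/- livers and at 774, 819.7, 807.6, 876.4 and 917.9 in WT livers, with no overlap. Its difference of -0.21 ± 0.07 (adjusted p = 0.0901) was the smallest of those called, -0.11 relative to the median, and it stayed past the threshold in only 1 of the 10 fits that left out a library, the one without WT replicate 1. With median-ratio scaling neither C2 (adjusted p = 0.232) nor Cfb (adjusted p = 0.404) passed.

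Cd59a moved the other way. It was at 71.2, 74.2, 104.2, 103.9 and 76.7 in LFABP-/- livers and at 64.3, 60.1, 59.9, 69.7 and 62.4 in WT livers, so every LFABP-/- library was higher. The difference was 0.42 ± 0.12 on the log2 scale (adjusted p = 0.053), 0.53 relative to the median, and it was lost without LFABP-/- replicate 4 or WT replicate 2. Its close copy Cd59b was at 4.5, 4.1, 4.7, 5.1 and 5 in LFABP-/- livers and at 4.6, 3.1, 3.6, 3.4 and 3.3 in WT livers (0.34 ± 0.11, adjusted p = 0.0669). Reads could be split between the 2 copies, so the pair is uncertain.

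**Figure D2:**
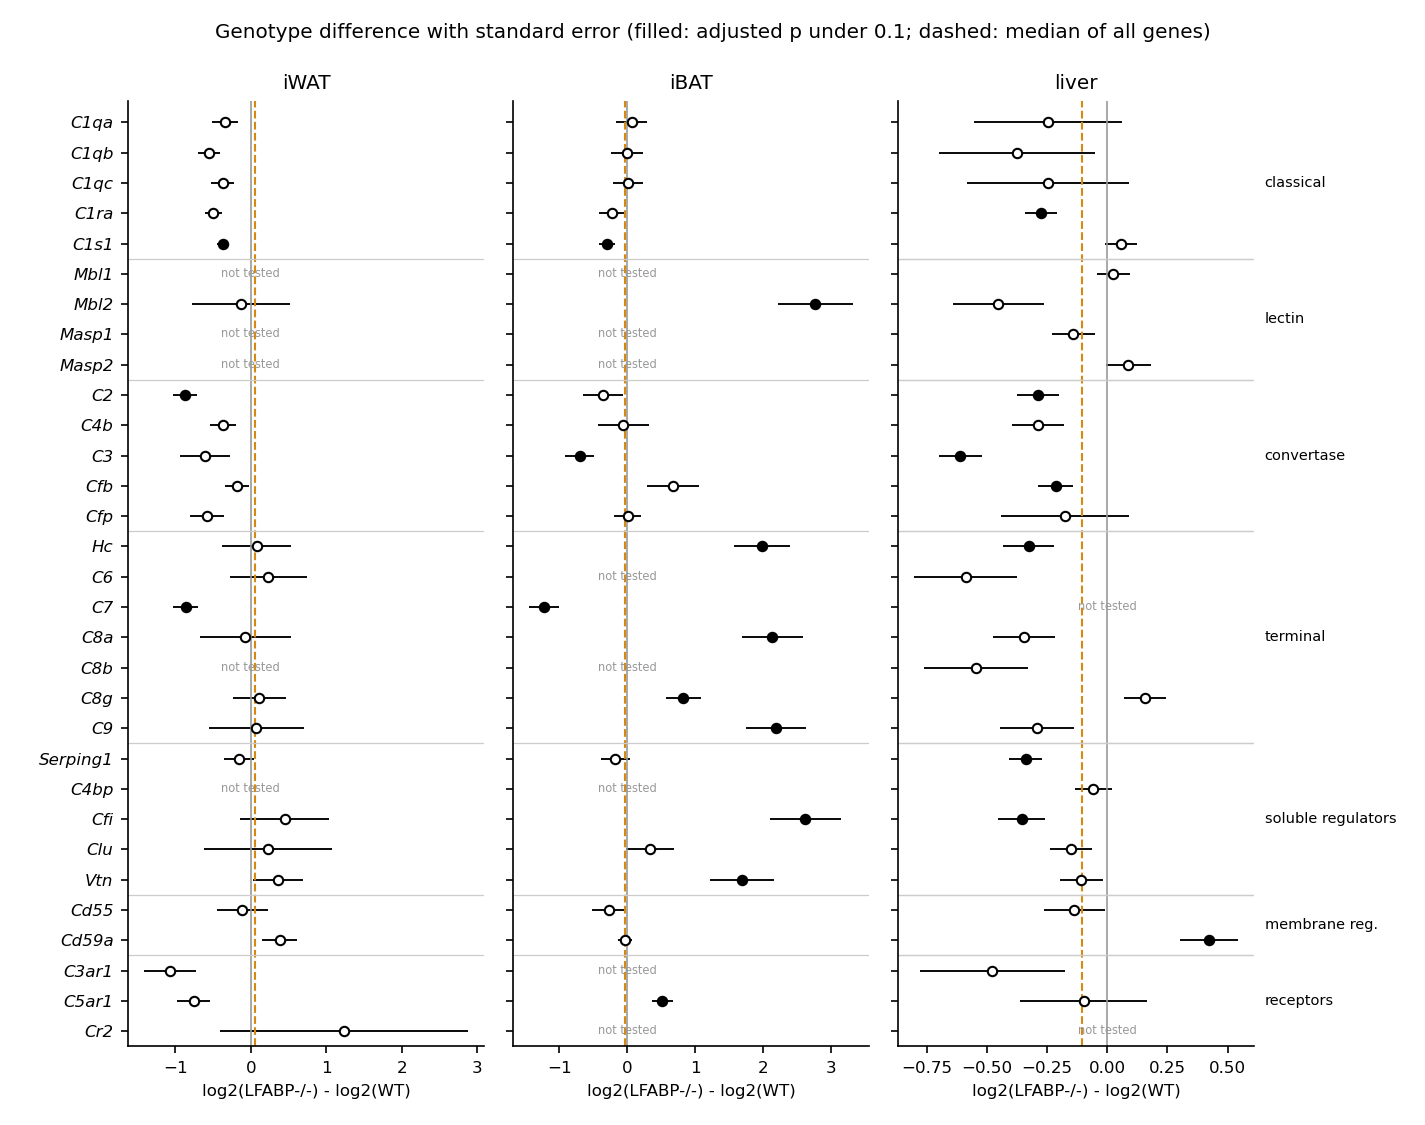
Log2 difference, LFABP-/- minus WT, with its standard error for each complement gene tested in iWAT, iBAT and liver; filled points passed adjusted p under 0.1 and the dashed line is the median of all genes tested in that tissue (-0.10 in liver). Liver points lie mostly left of the dashed line, with Cd59a to the right, while in iBAT a set of liver-made genes lies far to the right, of which Hc, Mbl2, C8a, C9 and Cfi passed the filter only through the LFABP-/- libraries.

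The remaining liver transcripts did not pass the threshold. C6 (-0.59 ± 0.21, adjusted p = 0.106), C8b (-0.55 ± 0.21, adjusted p = 0.127) and Mbl2 (-0.45 ± 0.19, adjusted p = 0.149) had the largest differences among them in genes that liver makes. C4b averaged 585 ± 65 in LFABP-/- livers and 716 ± 86.9 in WT livers (-0.29 ± 0.11, adjusted p = 0.111). C1s1 and C8g were on the positive side, at 0.06 ± 0.07 (adjusted p = 0.614) and 0.16 ± 0.09 (adjusted p = 0.261). The C1q chains, C3ar1 and Cfp were spread widely among WT livers, with replicate 5 highest in each. Macrophage markers summed to 89.5 to 131.5 in LFABP-/- livers and to 81.5 to 253.1 in WT livers. With those markers as a covariate, 3 of the 8 calls remained, C3 (-0.63, adjusted p = 0.0195), Serping1 (-0.31, adjusted p = 0.0428) and C1ra (-0.28, adjusted p = 0.0535). Without the mitochondrially encoded genes in the total, 3 remained as well, C3 (-0.54, adjusted p = 0.0203), Serping1 (-0.27, adjusted p = 0.0604) and Cd59a (0.49, adjusted p = 0.0521). Of all genes called in liver, 81.8% were lower, but 41.9% with median-ratio scaling and 63.7% without the mitochondrially encoded genes.

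In iWAT, 3 of 26 complement transcripts tested were lower in LFABP-/- mice, C2, C7 and C1s1, and 0 were higher. At an unadjusted p under 0.05 in limma, 9 of the 26 passed, against 1523 of all genes. The background was 0.77% of genes lower and 0.682% higher of 14668 tested, 1.45% in either direction. Mbl1, Masp1, Masp2, C8b and C4bp were under the filter. The median difference of the 26 genes was -0.17 on the log2 scale, against 0.05 for all genes, and 17 of the 26 were negative, against 39.4% of all genes. Among them C8a, C9 and Hc averaged 0.72, 0.84 and 1.08 in WT iWAT. They passed the filter only through LFABP-/- replicate 1, which held liver transcripts. Without that library 23 complement genes were tested, with a median of -0.36, against 0.11 for all genes. Of the 11 genes that were highest in iWAT 9 were negative, with a median of -0.56, which is a description, since these 11 were picked for high values in the same WT iWAT libraries. In C1qb, C1s1, C2 and C7 every LFABP-/- library lay under every WT library, an arrangement found in 1.66% of all genes.

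C2 was at 53.5, 49.7, 54.4, 50.4 and 60 in LFABP-/- iWAT and at 76.9, 114.2, 114, 72.1 and 124.2 in WT iWAT. The WT libraries were spread over a wide range, whereas the LFABP-/- libraries lay close together at 53.5% of the WT mean. The difference was -0.87 ± 0.16 on the log2 scale (adjusted p = 0.0514, exact permutation p = 0.0079). C7 (chromosome 15, 4988762 to 5063740) was at 20, 24.1, 28.7, 19.7 and 28.9 in LFABP-/- iWAT and at 55.3, 53, 44.1, 36 and 35.3 in WT iWAT. Its mean was 54.3% of that in WT, a difference of -0.86 ± 0.17 (adjusted p = 0.0608, exact permutation p = 0.0079). C1s1, the protease that cleaves C4 and C2, was at 244.9, 235.1, 281.6, 252.9 and 253.3 in LFABP-/- iWAT and at 297.1, 322.3, 365.8, 317.3 and 335.8 in WT iWAT, a difference of -0.37 ± 0.08 (adjusted p = 0.0949, exact permutation p = 0.0079).

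These calls stood near the threshold. When 1 library was left out, the C2 difference stayed between -0.97 and -0.78, but its adjusted p ran from 0.0263 to 0.153 and was above 0.1 without LFABP-/- replicate 1, 2 or 4 or WT replicate 2, 3 or 5. The same 6 libraries decided the call of C7, whose difference stayed between -0.94 and -0.78. C1s1 was called in 1 of the 10 fits, that without WT replicate 1, with differences between -0.41 and -0.33. With median-ratio scaling, 0 of the 3 were called, at adjusted p = 0.153 for C2, 0.113 for C7 and 0.229 for C1s1. The skeletal muscle markers summed to 44.3 to 4759.6 in LFABP-/- iWAT and to 33.3 to 728.2 in WT iWAT. With them as a covariate none of the 3 was called either, at -0.86 for C2 (adjusted p = 0.144), -0.86 for C7 (adjusted p = 0.165) and -0.35 for C1s1 (adjusted p = 0.255).

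**Figure D3:**
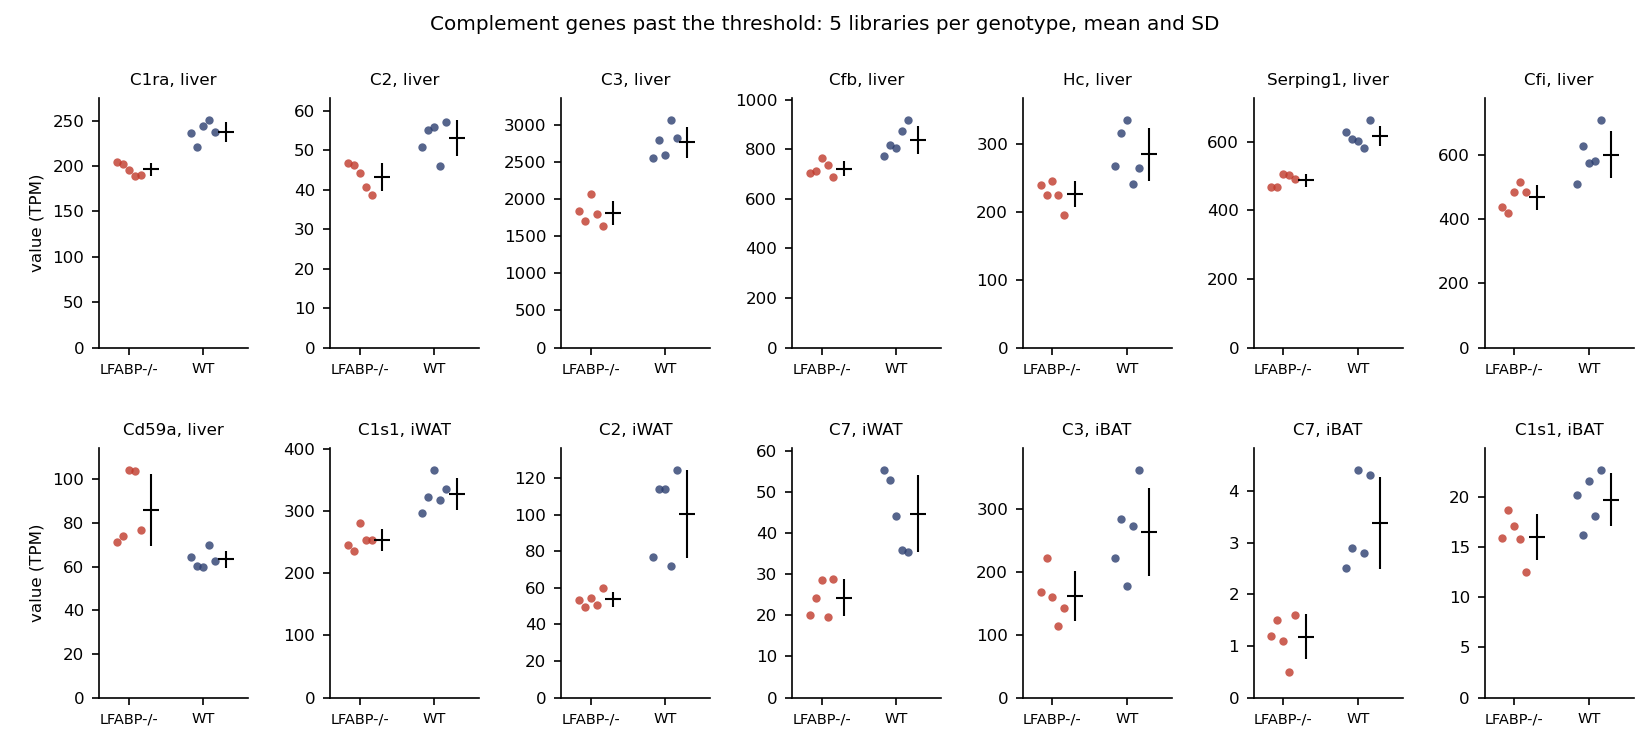
Value in TPM in each of 5 libraries per genotype (LFABP-/- left in red, WT right in blue) for the 8 genes called in liver, the 3 called in iWAT, and C3, C7 and C1s1 in iBAT; the bar beside the points is the mean and its SD, and every axis starts at 0. In C3, C1ra, Serping1 and Cfb in liver, in C1s1, C2 and C7 in iWAT, and in C7 in iBAT the LFABP-/- points all lie under the WT points, while in liver Cd59a they all lie over them.

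Several genes of macrophages had negative differences in iWAT that did not pass the threshold. C1qb averaged 239 ± 11.2 in LFABP-/- and 358 ± 85.3 in WT iWAT (-0.56 ± 0.14, adjusted p = 0.144). C3ar1 averaged 6.52 ± 1.89 in LFABP-/- and 15.2 ± 8.35 in WT iWAT (-1.07 ± 0.34, adjusted p = 0.241), C5ar1 14.3 ± 2.4 and 25.4 ± 8.73 (-0.76 ± 0.22, adjusted p = 0.204), and Cfp 87.8 ± 20.1 and 135 ± 44.3 (-0.58 ± 0.23, adjusted p = 0.368). The 10 macrophage markers moved with them: they summed to 273.3 to 375.7 in LFABP-/- iWAT and to 379.9 to 723.9 in WT iWAT, with no overlap and none at 0. Beside C1s1, C2 and C7, the mean log2 level of the 9 fibroblast and preadipocyte markers was 6.68 to 7.17 in LFABP-/- iWAT and 7.26 to 7.82 in WT iWAT, also without overlap. With the macrophage markers as a covariate, C2 (-0.95, adjusted p = 0.0561) and C7 (-1.03, adjusted p = 0.0561) stayed past the threshold. C1s1 (-0.24, adjusted p = 0.181) did not, while Clu, Cd55 and Cr2 were called higher. That fit called 516 genes lower and 3822 higher in all, with a median of 0.295. Because the macrophage markers did not overlap between genotypes, it cannot separate them from genotype. The part of the fibroblast markers in the C1s1, C2 and C7 differences was not tested.

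Another group of complement genes in iWAT moved with lymph node transcripts. The 15 lymphocyte markers summed to 44.4, 1145, 2080, 1911 and 48.8 in LFABP-/- iWAT and to 34.2, 26.3, 750, 2792.3 and 32.3 in WT iWAT. Cr2, the receptor for C3 fragments of B cells and follicular dendritic cells, was at 0.1, 17.6, 31.6, 30.5 and 0.4 in the same LFABP-/- libraries and at 0.1, 0.1, 12.4, 47 and 0.1 in the WT libraries. It was above 1 only in the 5 libraries with lymphocyte markers at 750 or more. Clu was at 39.7, 202.3, 350.7, 277.7 and 41.3 in LFABP-/- and at 76.9, 49.7, 198.7, 494.6 and 38.9 in WT iWAT and followed the same libraries. The genotypes overlapped for both genes.

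C3 in iWAT was at 231.7, 371.7, 578.9, 490.9 and 246.8 in LFABP-/- mice and at 449.3, 406.2, 538.7, 1087.9 and 456.9 in WT mice. The difference did not pass the threshold (-0.60 ± 0.33, adjusted p = 0.607). Among libraries low in lymphocyte markers it was at 231.7 and 246.8 in LFABP-/- and at 406.2 to 456.9 in WT iWAT. With the lymphocyte markers as a covariate the C3 difference was -0.84 (adjusted p = 0.0134), and 10 complement genes were lower and 1, Cd59a, was higher (0.54, adjusted p = 0.0416). The other lower genes were C1qb, C1qc, C1ra, C1s1, C2, Cfp, C7, C3ar1 and C5ar1. In that fit 1193 of the 14668 genes tested were called in all, 679 lower and 514 higher, against 213 without the covariate. With macrophage markers as a covariate, which did not overlap between genotypes in iWAT, C3 stood at 0.27 (adjusted p = 0.632). In the 5 libraries low in lymphocyte markers alone, 0 complement genes and 6 genes in all were called.

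**Figure D4:**
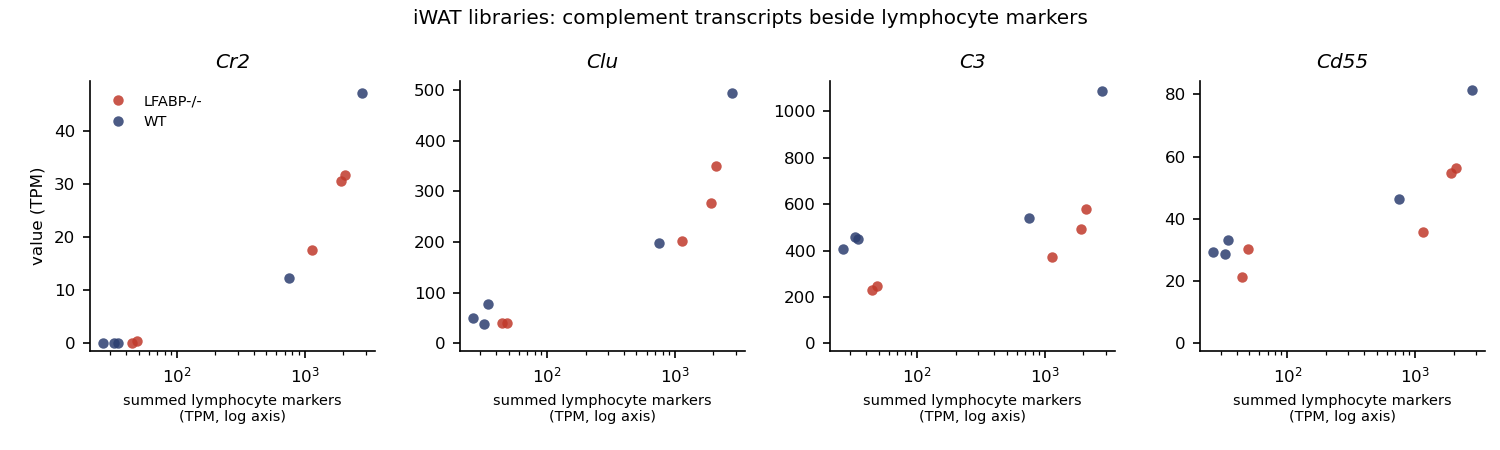
Value in TPM of Cr2, Clu, C3 and Cd55 in the 10 iWAT libraries against the summed value of 15 lymphocyte markers (log axis), LFABP-/- in red and WT in blue. Cr2 rises above 1 only in the 5 libraries with marker sums of 750 or more, and at low marker sums the 2 LFABP-/- points of C3 (231.7 and 246.8) lie under the 3 WT points (406.2 to 456.9).

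In iBAT, 11 of 23 complement transcripts tested differed, 3 lower and 8 higher in LFABP-/- mice. The background was high, 25.5% of genes lower and 22.3% higher of 11614 tested, 47.8% in either direction. The lower genes were C3, C7 and C1s1, which iBAT of WT mice contained at 3.38 or more on average. The higher genes were Mbl2, Hc, C8a, C8g, C9, Cfi and Vtn, all of which liver makes, and C5ar1. Mbl1, Masp1, Masp2, C6, C8b, C4bp, C3ar1 and Cr2 were under the filter. Hc, Mbl2, C8a, C9 and Cfi passed it only through the LFABP-/- libraries, since their WT means were 0.28 or less, so their number is given as a description.

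C3 was at 166.8, 222, 160.2, 113.3 and 142.2 in LFABP-/- iBAT and at 222.3, 282.9, 176.6, 272.3 and 361 in WT iBAT. One LFABP-/- library, replicate 2, lay above the lowest WT library. The mean was 61.2% of that in WT, a log2 difference of -0.70 ± 0.21 (adjusted p = 0.0234, exact permutation p = 0.0159), and the call held in all 10 fits that left out 1 library. C7 was at 1.2, 1.5, 1.1, 0.5 and 1.6 in LFABP-/- iBAT and at 2.5, 2.9, 4.4, 2.8 and 4.3 in WT iBAT, with no overlap. Its difference of -1.22 ± 0.22 (adjusted p = 0.00208) also held in all 10 such fits. C1s1 was at 15.9, 18.7, 17.1, 15.8 and 12.5 in LFABP-/- iBAT and at 20.2, 16.2, 21.6, 18.1 and 22.7 in WT iBAT (-0.30 ± 0.12, adjusted p = 0.0698), and was called in 4 of 10 fits: the call was lost without LFABP-/- replicate 1, 4 or 5 or WT replicate 1, 3 or 5. Fibroblast and preadipocyte markers, beside these 3 genes, summed to 103.9 to 141.8 in LFABP-/- iBAT and to 142 to 402.3 in WT iBAT. Brown adipocyte markers had a mean log2 level of 9.70 to 10.18 in LFABP-/- iBAT and 8.55 to 9.23 in WT iBAT, with no overlap, and skeletal muscle markers summed to 211.7 to 15766.8 in LFABP-/- and to 1324.2 to 37509.3 in WT iBAT. The part of these 3 marker groups in the differences was not tested.

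The liver-made genes were higher in every LFABP-/- library than in any WT library, except C8g. All LFABP-/- values over all WT values is an arrangement found in 12.1% of all genes tested in iBAT, and the opposite one, seen in C7, in 14.3%. The 5 genes that passed the filter only through LFABP-/- libraries are given by their values alone. Mbl2 was at 5.4, 12.5, 9.7, 2.1 and 1.1 in LFABP-/- iBAT and at 0.5, 0, 0, 0.5 and 0.4 in WT iBAT. Cfi was at 6.1, 8.3, 7.4, 1.6 and 0.8 in LFABP-/- and at 0.3, 0, 0, 0.3 and 0.4 in WT iBAT. Both were high in LFABP-/- replicates 1, 2 and 3 and low in replicates 4 and 5. C9 was at 4.6, 4.9, 3.9, 1.1 and 0.7 in LFABP-/- and at 0.1, 0, 0, 0.3 and 0.5 in WT iBAT. C8a was at 4.4, 3.8, 3.8, 0.8 and 0.6 in LFABP-/- and at 0.3, 0, 0, 0 and 0.3 in WT iBAT. The same 3 LFABP-/- libraries were the high ones. Hc was at 3, 3.4, 3, 0.7 and 0.4 in LFABP-/- and at 0.1, 0, 0, 0.1 and 0.1 in WT iBAT. Vtn was at 28.7, 42.7, 41.3, 9.3 and 7.5 in LFABP-/- and at 6.2, 4.8, 5, 7.4 and 7.3 in WT iBAT (1.68 ± 0.48, adjusted p = 0.018). C8g, which iBAT of WT mice also contained, was at 12.4, 16.2, 14.2, 7.6 and 5.5 in LFABP-/- and at 5.8, 5.3, 6.1, 6.5 and 4.8 in WT iBAT (0.82 ± 0.26, adjusted p = 0.0282).

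Among the genes under the filter, LFABP-/- replicates 1, 2 and 3 were again the high libraries. Mbl1 was at 2.2, 3.1, 2.6, 0.4 and 0.4 in LFABP-/- iBAT and at 0, 0, 0, 0.1 and 0.2 in WT iBAT. Masp2 was at 2, 2.4, 2, 0.4 and 0.3 in LFABP-/- and at 0.1, 0.1, 0, 0.1 and 0.1 in WT iBAT. C8b was at 2.1, 2, 2.4, 0.5 and 0.4 in LFABP-/- and at 0.2, 0, 0, 0 and 0.2 in WT iBAT. In these 3 genes, as in C4bp, every LFABP-/- value was above every WT value. C4bp was at 1.8, 2.7, 2.2, 0.4 and 0.3 in LFABP-/- and at 0.1, 0, 0, 0.1 and 0.1 in WT iBAT. C6 was at 2.5, 1.7, 1.2, 0.4 and 0.2 in LFABP-/- and at 0.2, 0.1, 0.2, 0.1 and 0.2 in WT iBAT.

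Hepatocyte markers, among them albumin (Alb), moved with these genes library by library. As a percentage of the mean liver level of the same genotype, the median of the 12 markers was 1.27%, 1.82%, 1.59%, 0.317% and 0.182% in LFABP-/- iBAT and 0.0559%, 0.00342%, 0.00555%, 0.0361% and 0.076% in WT iBAT. Cfi was at 1.3%, 1.78%, 1.58%, 0.342% and 0.171% of its liver level in the LFABP-/- libraries and at 0.067% or less in WT. Hc was at 1.33%, 1.5%, 1.33%, 0.31% and 0.177% of its liver level in LFABP-/- and at 0.035% or less in WT. Not every liver-made gene lay so close to the markers. C8g stood at 1.08% to 3.19% of its liver level in LFABP-/- and at 1.05% to 1.42% in WT iBAT, and Vtn at 0.311% to 1.77% in LFABP-/- and at 0.184% to 0.284% in WT iBAT. C3, Serping1 and C1s1 stood well above that line in every library, with C3 at 6.25% to 12.3% of its liver level in LFABP-/- and at 6.39% to 13.1% in WT iBAT. In iWAT, LFABP-/- replicate 1 had the markers at 2.18% and Cfi at 2.27%, and the other LFABP-/- libraries had the markers at 0.0206% to 0.126%.

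**Figure D5:**
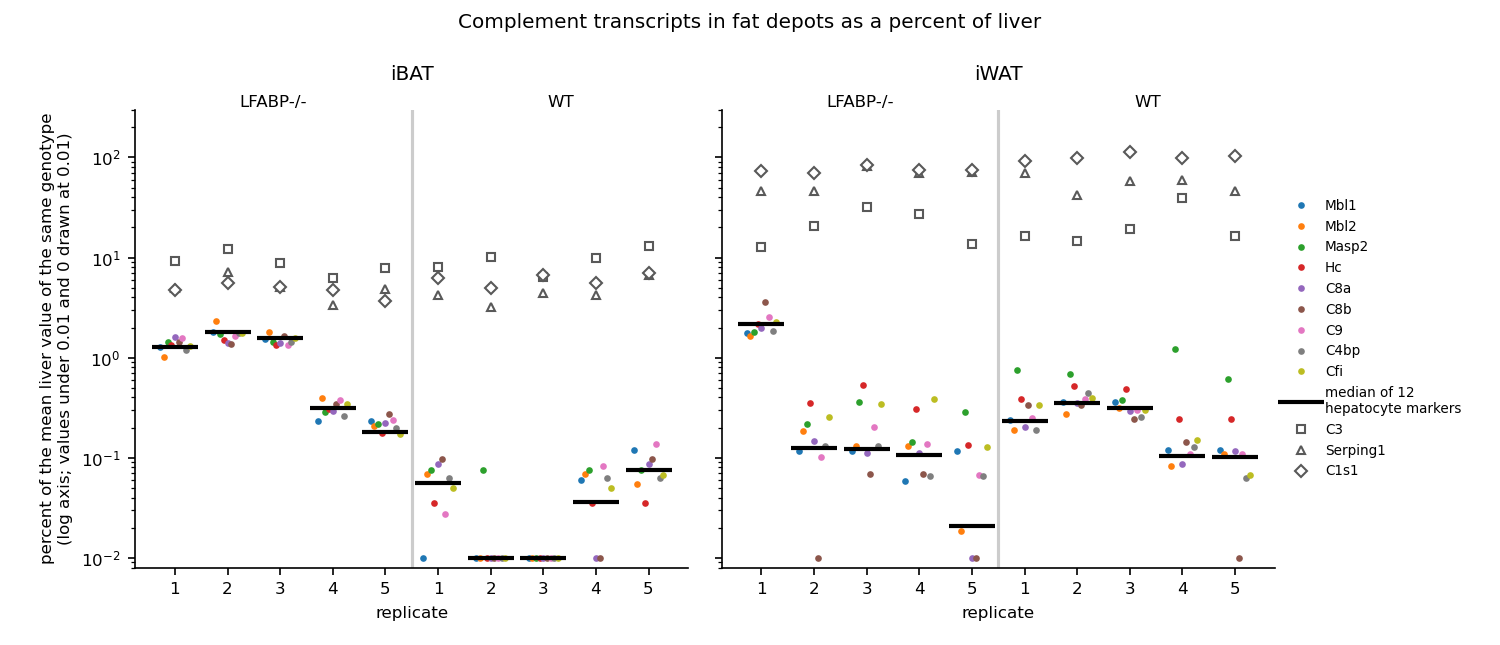
Percent of the mean liver value of the same genotype (log axis) in each iBAT and iWAT library, LFABP-/- left of WT. Black bars are the median of 12 hepatocyte markers, filled points are 9 liver-made complement genes and open symbols are C3, Serping1 and C1s1; values of 0 and values under 0.01 are drawn at 0.01. The black bars reach 1.27% to 1.82% in LFABP-/- iBAT replicates 1, 2 and 3 and 2.18% in LFABP-/- iWAT replicate 1, and the open symbols stay above them.

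With the hepatocyte markers as a covariate, 2 complement genes were called in iBAT, both lower, C3 (-1.41, adjusted p = 0.0892) and C1s1 (-0.72, adjusted p = 0.0977). C8g was then at -0.16 (adjusted p = 0.836) and Vtn at -0.57 (adjusted p = 0.551). The hepatocyte markers summed to 222.3 to 2263.1 in LFABP-/- and to 8.6 to 118.9 in WT iBAT. Because these sums did not overlap, that fit cannot separate the markers from genotype. When LFABP-/- replicates 1, 2 and 3 were left out, 4 were called, all lower, C3 (-1.01, adjusted p = 0.0441), C7 (-1.39, adjusted p = 0.0335), C1s1 (-0.47, adjusted p = 0.0821) and C1ra (-0.57, adjusted p = 0.0837). With the liver share of each library subtracted from its values, 18 complement genes passed the filter, of which 9 were called lower and 1, C5ar1, higher (0.51, adjusted p = 0.0261). The lower ones were C3 (-0.86, adjusted p = 0.00599), C7, C1s1, C1ra, C2, C4b, Serping1, Clu (-1.33, adjusted p = 0.00678) and Vtn (-1.94, adjusted p = 0.023), the last of which was called higher before the subtraction. The share subtracted was larger in every LFABP-/- than in any WT iBAT library, and negative results were not allowed. In LFABP-/- iBAT, Vtn lay at 0.935 to 1.71 times that share and Clu at 1.13 to 4.98 times. Both calls therefore depend on the size of the share. C3 was called lower in iBAT in each of these 3 fits. Over all genes, 298 were called lower and 104 higher with the hepatocyte markers, and 1863 and 1002 without the 3 replicates. With the liver share subtracted, 3202 were called lower and 2272 higher, so 58.5% of the genes called were lower. The main iBAT fit called 47.8% of all genes tested. The counts of complement genes in these 3 fits are therefore given as a description. C5ar1 was low in both tissues, averaging 1.4 in WT livers and 1.34 in WT iBAT. It was at 2.2, 2.3, 1.6, 3.2 and 1.6 in LFABP-/- iBAT and at 1.3, 1.5, 1.1, 1.3 and 1.5 in WT iBAT (0.51 ± 0.16, adjusted p = 0.0252). The groups did not overlap, but 1.6 and 1.5 are neighboring steps of values rounded to 1 decimal. It was not called without those 3 libraries (0.60, adjusted p = 0.108) or with the hepatocyte markers (0.51, adjusted p = 0.432).

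The question whether the genotype effect differed between tissues was put to each gene as an interaction in the fit of 30 libraries. It was called for 13 of the 31 complement genes in at least 1 of 3 tissue pairs, against 20.9% of 15564 genes. By pair, 1 complement gene and 3.54% of all genes were called for iWAT against liver, 12 and 15.1% for iBAT against liver, and 9 and 11.2% for iWAT against iBAT. Of the 13, 11 were liver-made genes whose effect was more positive in iBAT than in liver (Mbl1, Mbl2, Masp2, Hc, C6, C8a, C8b, C9, C4bp, Cfi and Vtn). All of these but Vtn averaged 0.28 or less in WT iBAT. They passed the iBAT filter only through LFABP-/- libraries or were under it, so their calls are a description. For Mbl2 the iBAT effect exceeded the liver effect by 3.22 ± 0.76 on the log2 scale. The other 2 were C1s1 and C5ar1. C1s1 was at 327, 332.9, 342.9, 354.2 and 322.1 in LFABP-/- livers and at 319.7, 304.5, 341.3, 340 and 309 in WT livers, and its effect was more negative in iWAT than in liver (-0.43 ± 0.13, adjusted p = 0.0825) and more negative in iBAT than in liver (-0.36 ± 0.13, adjusted p = 0.0704). For C5ar1 the iWAT effect was more negative than the iBAT effect (-1.27 ± 0.33, adjusted p = 0.0183). With the liver share of each fat library subtracted, 5 genes were called, but not all for the same difference. C1s1 and C5ar1 kept their calls and directions, and so did Mbl2 for iBAT against liver (1.42, adjusted p = 0.0422) but not for iWAT against iBAT (-0.78, adjusted p = 0.354). Vtn was called in the opposite direction for iBAT against liver (-1.84, adjusted p = 0.0679, against 1.79 before) and was newly called for iWAT against iBAT (2.09, adjusted p = 0.0486). Cfi lost its call for iBAT against liver (0.45, adjusted p = 0.318), was newly called for iWAT against liver (1.18, adjusted p = 0.0123), and was called in the opposite direction for iWAT against iBAT (0.74, adjusted p = 0.0848, against -2.17 before). The share subtracted was larger in every LFABP-/- than in any WT iBAT library, so the Vtn and Cfi calls that involve iBAT depend on its size. The Cfi call for iWAT against liver involves no iBAT library, and its dependence on the iWAT share was not tested. For C3, C2 and C7 no interaction was called.

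Outside the 31 genes, 26 other complement genes of a list of 27 were found in the table. In liver the background was 13.9% of genes lower and 3.08% higher. Among the genes reported, Cpn2, a subunit of the carboxypeptidase that inactivates C3a and C5a, was lower there (-0.27 ± 0.09, adjusted p = 0.0761). Cd59b, given above, and C1qbp (0.30 ± 0.10, adjusted p = 0.0866) were higher.

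In iBAT 4 of the 12 tested were lower and 2 higher, where the background was 25.5% lower and 22.3% higher, 47.8% in either direction. Cfd, factor D or adipsin, the fat cell protease that activates factor B, was at 60.1, 80.8, 103.8, 114.4 and 103.2 in LFABP-/- iBAT and at 698.4, 1020.8, 1141.2, 1060.1 and 1607.4 in WT iBAT. The difference was -3.56 ± 0.23 on the log2 scale (adjusted p = 2.61e-05), with all LFABP-/- libraries under all WT libraries. In iWAT Cfd was at 6706.1 to 16161.1 in LFABP-/- and 12244.8 to 36955.1 in WT mice (-0.87 ± 0.35, adjusted p = 0.4), which did not pass. The smaller falls in iBAT were those of Cr1l, a membrane regulator of C3 and C4 fragments (-0.28 ± 0.06, adjusted p = 0.00579), Cd59b (-0.28 ± 0.12, adjusted p = 0.0817) and Cpn2 (-0.45 ± 0.16, adjusted p = 0.0431). The other 2, Cpn1 and Cfhr2, are made in liver and passed the filter only through the LFABP-/- libraries, so they are given as a description. Cpn1 averaged 2.02 in LFABP-/- and 0.06 in WT iBAT, and Cfhr2 3.08 in LFABP-/- and 0.18 in WT iBAT.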

How the data were processed

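RNA of iWAT, iBAT and liver of 10 mice was poly(A)-selected, sequenced in single reads of 100 bases, and mapped and counted by the authors with CLC Genomics Workbench on GRCm38 with Ensembl release 92 annotation. The deposited values are headed RPKM, but each of the 30 columns sums to between 999967.3 and 999996.4, so the authors' values were treated as TPM, a length-corrected share of the library, rounded to 1 decimal. Read counts are not part of the table, so depth is unknown and no count model was used. The table's unit differs from its heading and this was checked on the column sums.

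Groups came from the sample labels, 5 LFABP-/- and 5 WT mice per tissue. Genes averaging 1 TPM or more in the 10 libraries of a tissue were tested there on log2(value + 0.5) with limma 3.58.1 (R 4.3.3; intensity trend, two-sided, Benjamini-Hochberg over all genes tested, threshold 0.1); fold changes are on that scale, which understates low genes. Tissues and interactions were compared in 1 fit of the 30 libraries with 6 group means and mouse as a random block (statmod 1.5.0). Exact permutation tests used all 252 assignments. Named with each library's value were the genes called in a tissue or an interaction and, for each role, the gene with the highest mean in each tissue. The complement genes, roles and marker lists were chosen with earlier results of these data known. The fits were tested on simulated data. Marker lists of macrophages, Kupffer cells, lymphocytes, hepatocytes, fibroblasts and adipocytes were summed per library. Alternatives covered pseudocounts, filters, scalings, covariates and left-out libraries; those with hepatocyte markers, a subtracted liver share and iBAT libraries low in liver transcripts were chosen after seeing the data. No pair of libraries within a group looked like 1 library deposited in duplicate (at most 5.06% identical values). Mice were housed in small groups, and which of them shared a cage or litter is not given in the sources used here. One gene of the list of other complement genes is not reported here.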

Additional observations from a re-analysis of the deposited data

Results flagged for a closer look

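In 18 of 155 groups of 5 libraries with a mean value of at least 1, 1 library lay far from the other 4 by Dixon's criterion, where chance gives about 1 group in 20. LFABP-/- replicate 1 of iWAT held 7 of them, all liver-made genes: Hc at 4.9, C8a at 5.4, C8b at 5.3, C8g at 13.6, C9 at 7.5, Cfi at 10.6 and Mbl2 at 8.8. The liver of WT replicate 5 held 6, genes of macrophages: C1qa at 281.2, C1qb at 253.6, C1qc at 146.1, Cfp at 60.3, C3ar1 at 4.5 and C5ar1 at 3.1. WT replicate 4 of iWAT, the library with the highest lymphocyte marker sum, held 3: C3 at 1087.9, Vtn at 55 and Cr2 at 47. The other 2 were C1ra at 143.2 in LFABP-/- iWAT replicate 3 and C5ar1 at 1.5 in LFABP-/- liver replicate 2.

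The genotype effect, LFABP-/- minus WT on the log2 scale, differed between tissues by the interaction test for 13 genes. All but Vtn, C1s1 and C5ar1 averaged 0.28 or less in WT iBAT, so their calls are a description. The iBAT effect minus the liver effect was 1.75 for Mbl1, 3.22 for Mbl2, 1.44 for Masp2, 2.31 for Hc, 1.76 for C6, 2.48 for C8a, 2.17 for C8b, 2.48 for C9, 1.67 for C4bp, 2.97 for Cfi, 1.79 for Vtn and -0.36 for C1s1. The iWAT effect minus the iBAT effect was -1.69 for Mbl1, -2.90 for Mbl2, -1.92 for Masp2, -1.90 for Hc, -2.21 for C8a, -2.11 for C9, -1.47 for C4bp, -2.17 for Cfi and -1.27 for C5ar1. The iWAT effect minus the liver effect was -0.43 for C1s1.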

How the results depend on the processing

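The numbers of complement genes highest in liver, iWAT and iBAT moved by less than 1.5 times under all alternatives tried. In iWAT, 213 genes and 3 complement genes were called. Without a filter 135 genes were called, and with median-ratio scaling 101 and 0. Library weights gave 9158 and 12, and an adjusted p under 0.05 gave 74 and 0. Adding lymphocyte markers to the model gave 1193 and 11. Skeletal muscle markers, which summed to 44.3 to 4759.6 in LFABP-/- and 33.3 to 728.2 in WT iWAT, gave 56 and 0, macrophage markers 4338 and 5, libraries low in lymphocyte markers 6 and 0, and 1 fit of all 30 libraries 950 and 6. Without the mitochondrially encoded genes 5 complement genes were called. Leaving out 1 library gave 51 to 318 genes and 0 to 5 complement genes, with 51 genes without WT replicate 5. The sign of Cd55 in iWAT turned with library weights (0.62) and with macrophage markers (0.93).

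In iBAT, 5556 genes and 11 complement genes were called, 3481 and 4 with a filter at a mean of 5, 402 and 2 with hepatocyte markers, 5474 and 10 (9 lower, 1 higher) with the liver share subtracted, and 2865 and 4 in the libraries low in liver transcripts, against 4880 to 5834 and 9 to 12 with 1 library left out. The sign turned with hepatocyte markers for C8g (-0.16), Cfi (-0.0041) and Vtn (-0.57), and with the liver share subtracted for Clu (-1.33) and Vtn (-1.94). That share was larger in every LFABP-/- than in any WT iBAT library.

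In liver, 1969 genes and 8 complement genes were called. The numbers were 4 complement genes with median-ratio scaling, 1208 and 3 without the mitochondrially encoded genes, 1012 and 4 at an adjusted p under 0.05, and 1311 and 3 with macrophage markers. One fit of all 30 libraries called 0 complement genes in liver, and leaving out 1 library gave 746 to 2150 genes and 3 to 9 complement genes, the lowest without WT replicate 2. Library names carry prefixes whose meaning is not given in the sources used here, and in iWAT those of LFABP-/- replicate 2 and WT replicates 4 and 5 differ from the same mouse's iBAT and liver names. With the prefix of each mouse's iBAT and liver names as a covariate 3, 12 and 11 complement genes were called in iWAT, iBAT and liver. Interactions were called for 13 complement genes, 5 with the liver share subtracted (Vtn and Cfi in the opposite direction for 1 pair each), and 9 to 15 with 1 library left out. Except where fewer libraries or genes entered a fit, the cause of these shifts was not tested.

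LFABP-/- and WT mice share only a replicate number. Correlations of same-numbered libraries ran from -0.53 to 0.511 in iBAT and -0.0614 to 0.127 in liver. In iWAT they were 0.501, -0.334, 0.51, 0.669 and 0.664 for replicates 1 to 5. The own number was the best match in 2, 1 and 2 of 5 in iWAT, iBAT and liver. The numbers were therefore not used as pairs. These correlations cannot exclude that mice of a number shared a cage or litter, since other cell types also move the libraries. With the replicate block 5 complement genes were called in iWAT and 1258 genes in liver. Values under 1 TPM rest on few rounded steps.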
